A study of Homo sapiens with 6 samples.

Results

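The genes described here belong by their symbols to the families of histone lysine methyltransferases, histone lysine demethylases and histone deacetylases. Some of them encode proteins with another or an unsettled activity. They were measured in BEAS-2B, a human cell line that was made from bronchial epithelium. The genes were chosen by name, as the protein-coding rows of the deposited expression table whose symbol starts with KMT, KDM, HDAC or SETD followed by a digit, without KDM5C, KDM5D and KDM6A. This rule gave 44 genes of 35019 in the table, namely 8 KMT, 9 SETD, 16 KDM and 11 HDAC genes. The rule reads only the symbol and the gene type. There were 3 libraries of cells given RSL3 with indirubin (RSL3+ID) and 3 libraries of cells given RSL3 alone. RSL3 inhibits GPX4, the enzyme that reduces lipid peroxides, and thereby starts ferroptosis, an iron-dependent form of cell death. It was given to both groups at 2 µM for 24 h. The RSL3+ID cells received indirubin, a bis-indole that inhibits kinases and binds the aryl hydrocarbon receptor, 2 h before RSL3, and the labels give its dose only as a range of 7.5 to 30 µM. No library without RSL3 and none with indirubin alone was analysed here, so an effect of indirubin itself and a changed response to RSL3 cannot be told apart. The group of each library rests on the name of its column, and the labels leave unsaid whether separate cultures were grown for each library. The p-values therefore cover library-to-library spread alone, and that spread may be technical.

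Histone methyltransferases transfer methyl groups from S-adenosylmethionine to lysines of the histone tails, and the lysine they modify sets which proteins bind the nucleosome. Demethylases remove these groups by either of 2 chemistries. The amine oxidases KDM1A and KDM1B use FAD, and the JmjC enzymes use oxygen, 2-oxoglutarate and ferrous iron. Deacetylases remove acetyl groups from histones and other proteins, mostly inside corepressor complexes. Methylation of histone H3 lysine 4 marks active promoters and enhancers, methylation of H3 lysine 27 and lysine 9 marks silent chromatin, and methylation of H3 lysine 36 marks the bodies of transcribed genes.

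Expression was examined as normalised counts, the reads of a gene divided by the size factor of its library. Reads on listed genes numbered between 16062502 and 18506637 in the RSL3+ID libraries and between 15206183 and 17960356 in the RSL3 libraries, and a gene without a read can have at most 3 expected reads, which is between 2.68 and 3.17 normalised counts. This limit covers counting error only. On the second principal component, with 26.4% of the variance of the 1000 most variable genes, RSL3+ID library 2 was at −31.3 and RSL3+ID libraries 1 and 3 were at 15.4 and 1.37. The epithelial keratins KRT8, KRT17 and KRT18 were abundant, the last at 5375, 4719 and 5382 normalised counts in RSL3+ID libraries and 7952, 7649 and 8921 in RSL3 libraries, whereas the basal markers KRT5 and TP63 had at most 5.28 normalised counts in any library and the mesenchymal gene VIM had between 4662 and 10206. KRT18 fell (limma adjusted p = 0.0361), and KRT8 was also lower in every RSL3+ID library (limma adjusted p = 0.308). The sum of 9 bronchial epithelial markers was nearly all KRT8, KRT17 and KRT18. This sum was between 33890 and 36866 normalised counts in RSL3+ID libraries and between 41063 and 44399 in RSL3 libraries. EPCAM went the other way, with 44.4, 45.6 and 64.5 in RSL3+ID libraries and 25.0, 34.1 and 40.3 in RSL3 libraries (limma adjusted p = 0.382). KRT14, at most 15.8, was also higher in every RSL3+ID library, and CDH1 had between 1.79 and 39.1. The sum of 5 markers of differentiated airway cells was between 37359 and 41730 in RSL3+ID libraries and between 23091 and 23871 in RSL3 libraries. Nearly all of it was the tubulin gene TUBB4B, which rose (limma adjusted p = 0.0176). FOXJ1 did not rise, with 184, 138 and 245 in RSL3+ID libraries and 208, 312 and 196 in RSL3 libraries (limma adjusted p = 0.516). SCGB1A1, MUC5AC and MUC5B had at most 10.3 normalised counts in any library. Sums of 4 mesenchymal and 3 endothelial markers overlapped between the groups. The part of these shifts in the results below was not tested. The summed level of 4 leukocyte markers was between 2.11 and 6.94 in RSL3+ID libraries and between 1.03 and 14.3 in RSL3 libraries, with CD3E at 0 in all 6.

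Of the 44 genes, 43 passed a mean normalised count of 10 and were tested, and KDM4E, a JmjC demethylase gene closely related to KDM4D, had no read in any library. None of the 43 passed a limma adjusted p of 0.05, where 1.91% of the 14188 tested genes passed in either direction (1.08% higher and 0.832% lower). Of these calls over all genes 56.5% were higher, a share that was 29.3% with scaling to the total count and 68.0% with upper-quartile scaling. At an unadjusted p under 0.05, 8 of the 43 were lower and 1 was higher in RSL3+ID, against 9.71% lower and 9.63% higher over all tested genes (19.3% in either direction). Limma-voom on the recovered reads also called 0 members, where 233 of the 14188 genes passed (136 higher and 97 lower). At an unadjusted p under 0.05 this fit had 7 members lower and 1 higher, and the share over all genes was not counted for it. The authors' deposited table of changed genes held 2 of the 43, KMT2B and HDAC9, both lower in RSL3+ID, where 3.03% of the tested genes stood in that table as lower and 6.3% in either direction. Other settings gave 1 call or more. KMT2B passed without a filter on low values (limma adjusted p = 0.0479, where 1.44% of genes passed) and with scaling to the total count (limma adjusted p = 0.0447, where 2.16% passed), and KDM5B passed with trends on length and GC removed, where 2.4% passed. Without RSL3+ID library 2, HDAC7, KMT2B, KMT2D and KDM5B passed, where 9.34% of all genes did. In a bulk measurement, less RNA per cell and fewer cells that express a gene cannot be told apart.

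The estimates leaned to one side. They were negative for 32 of the 43 members (74.4%), against 51.5% of all tested genes, and the median log2 fold change of RSL3+ID over RSL3 was −0.24 for the members and −0.016 for all tested genes. In 11 members all 3 RSL3+ID libraries lay below all 3 RSL3 libraries, which held for 12.6% of all tested genes, and in 3 members all lay above, which held for 12.8%. The lean was uneven between libraries. The median deviation of the members from their own mean over 6 libraries was 0.0055, −0.14 and −0.10 on the log2 scale in RSL3+ID libraries 1 to 3, and 0.094, 0.13 and 0.016 in RSL3 libraries 1 to 3. By its median RSL3+ID library 1 lay just under the RSL3 libraries. By the number of members below their own mean it lay among them, with 19 of 43, while the other RSL3+ID libraries had 30 each and the RSL3 libraries 14, 13 and 21.

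**Figure D1:**
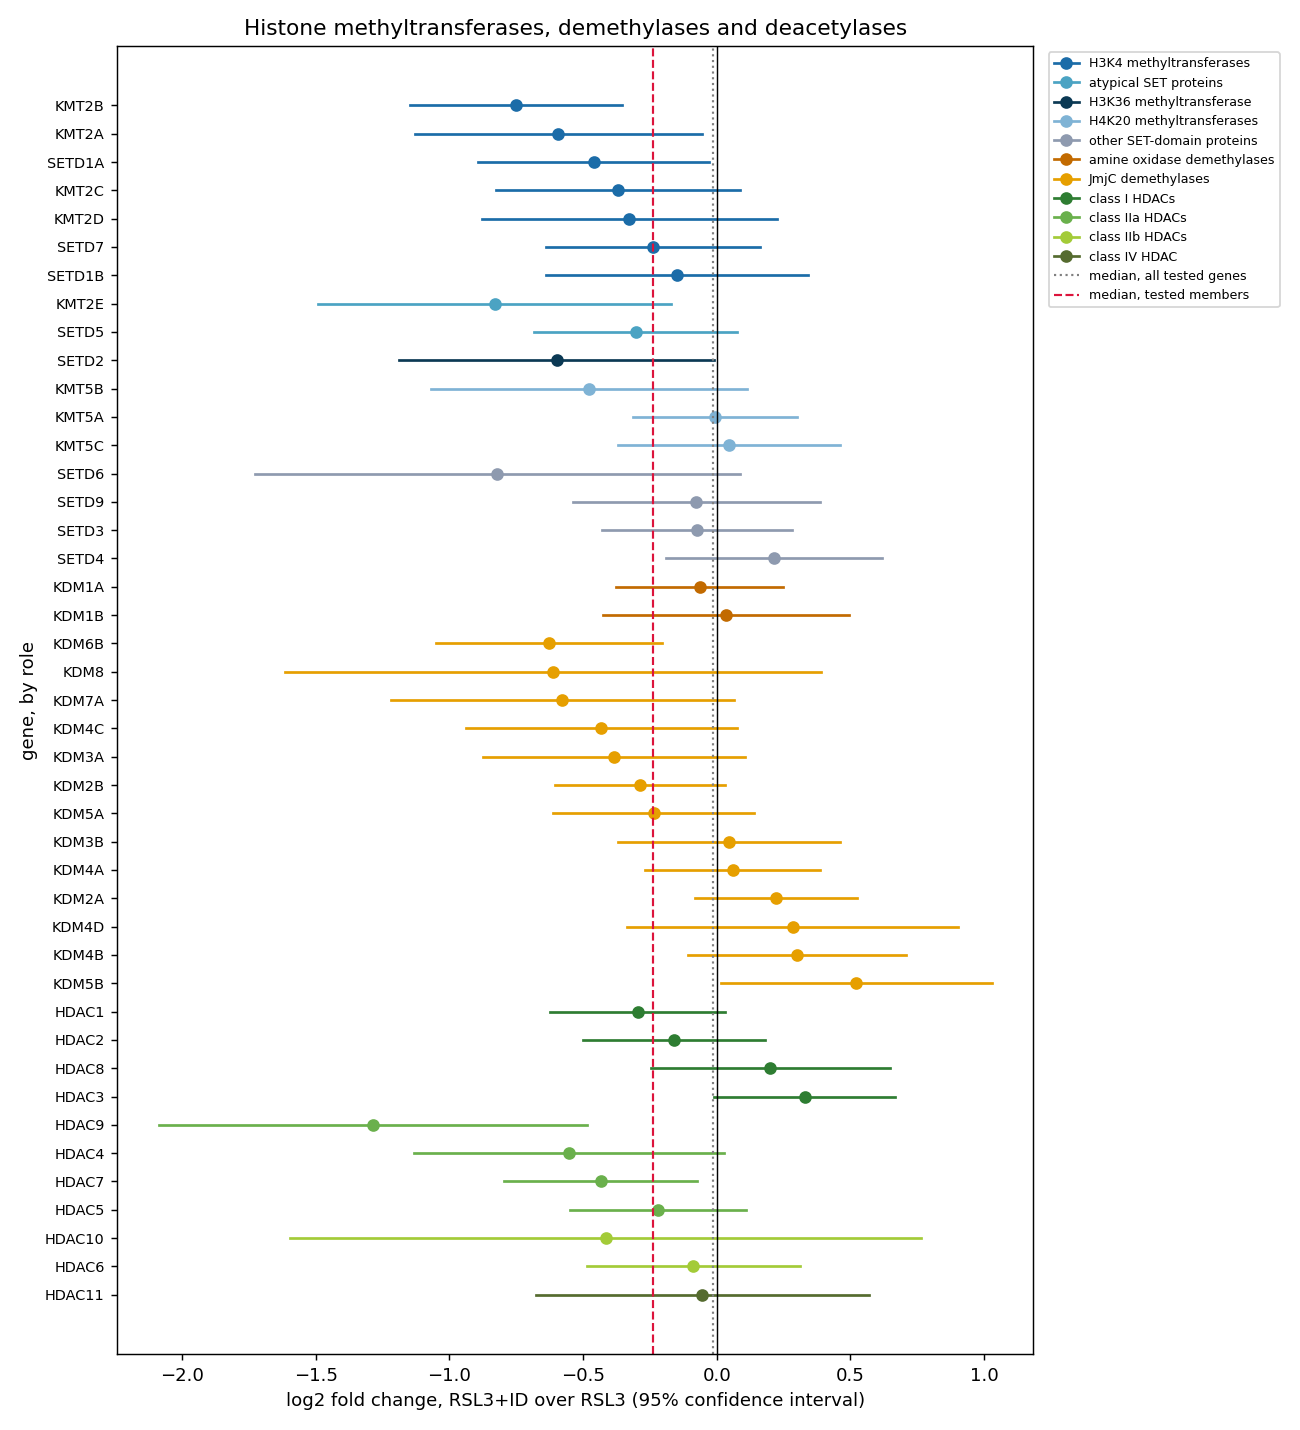
Log2 fold change of RSL3+ID over RSL3 for the 43 tested members (x axis), one gene per row and coloured by role, with 95% confidence intervals from limma as bars. The dashed line is the members' median of −0.24 and the dotted line the median of all tested genes, −0.016.

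These genes are long, and length moved with the comparison. The median exon length of the tested members, over all annotated exons of a gene, was 9231 bp, against 4893 bp for all tested genes. The Spearman correlation of log2 fold change with exon length was −0.26 over the 14188 tested genes and −0.15 over the 43 members, where the genes share libraries and are no replicates. Of the 2044 tested genes with exons at least as long as the median member, 70.5% had a negative estimate, the median log2 fold change was −0.19, and 20.8% had all RSL3+ID libraries below all RSL3 libraries, against 25.6% of the members. With a trend on exon length removed from each library, the members' median was −0.10 and that of all tested genes −0.011. In this setting 30 of 43 member estimates were negative, and the share over all genes was not counted. The libraries themselves differed in this trend. The correlation of a gene's deviation from its mean with exon length was −0.016, −0.217 and −0.190 in RSL3+ID libraries 1 to 3, and 0.168, 0.288 and −0.011 in RSL3 libraries 1 to 3. The library with the highest median of the members, RSL3 library 2, was also the one with the highest correlation with length. The part of length in the lean of the members was not tested.

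**Figure D2:**
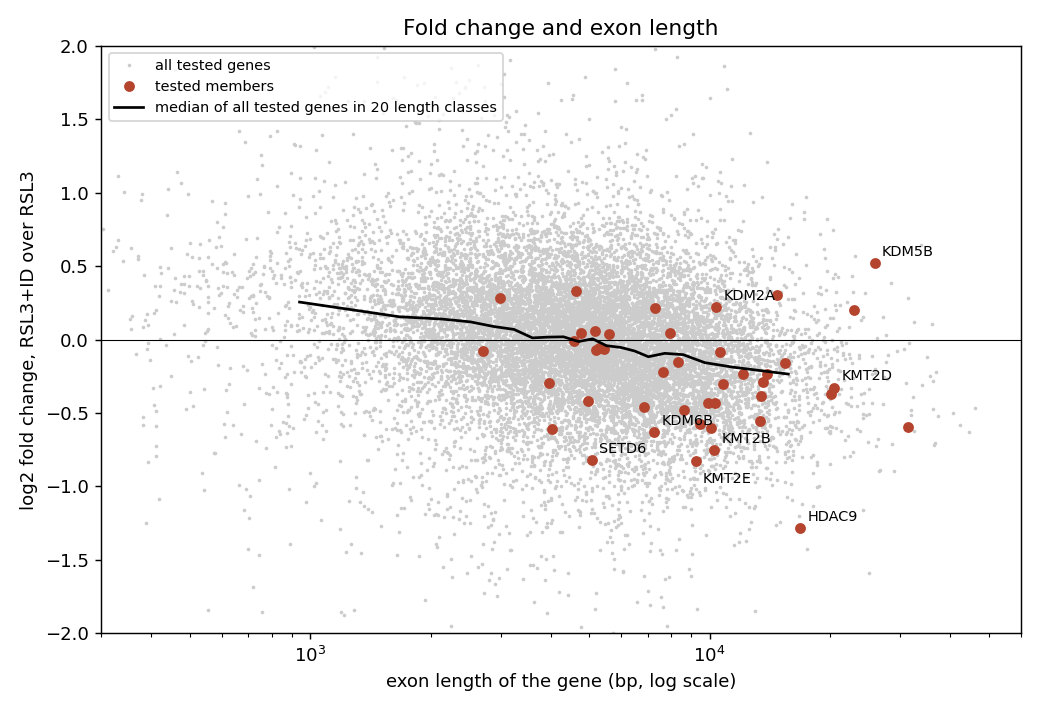
Log2 fold change of RSL3+ID over RSL3 (y axis) against exon length on a log scale (x axis), with all tested genes in grey, the 43 members in red and the median of all tested genes in 20 length classes as a line. The line falls with length, most members lie at the long end, and 75 genes lie outside the plotted range.

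The sequences upstream of the members show what kind of promoter these genes have. Windows from 250 bases before to 50 bases after the start site were taken from RefSeq (GRCh38.p14) and matched 41 of the 44 members by symbol, the exceptions being HDAC5, KDM4E and SETD1B. Where a member has several windows, the one nearest the start of its principal transcript was used. No such choice was made for the set of all windows, which keeps every window of a gene. The median GC content was 66.7% in the member windows and 58.7% in all 35116 windows, and the median number of CpG dinucleotides was 30 against 14. The printed windows belong to KMT2B and HDAC9, the members in the authors' table, and to KDM5B, the member with the highest estimate, and show how these starts differ in CpG content. Capitals mark the letters GCGTG on either strand, the core bound by the aryl hydrocarbon receptor.
KMT2B (chr19:35717753-35718052, plus strand): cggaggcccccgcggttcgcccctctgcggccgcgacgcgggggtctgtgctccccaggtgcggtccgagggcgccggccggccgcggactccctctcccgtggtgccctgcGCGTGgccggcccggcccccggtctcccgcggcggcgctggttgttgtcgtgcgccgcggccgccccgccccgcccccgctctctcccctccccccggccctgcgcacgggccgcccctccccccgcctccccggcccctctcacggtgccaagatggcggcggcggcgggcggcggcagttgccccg
HDAC9 (chr7:18496012-18496311, plus strand): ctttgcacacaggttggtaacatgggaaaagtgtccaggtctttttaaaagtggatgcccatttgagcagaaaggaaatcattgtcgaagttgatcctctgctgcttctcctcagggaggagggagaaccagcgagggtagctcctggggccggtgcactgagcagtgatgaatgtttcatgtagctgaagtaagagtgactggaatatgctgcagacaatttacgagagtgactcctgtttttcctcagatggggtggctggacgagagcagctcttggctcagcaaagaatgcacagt
KDM5B (chr1:202808372-202808671, minus strand): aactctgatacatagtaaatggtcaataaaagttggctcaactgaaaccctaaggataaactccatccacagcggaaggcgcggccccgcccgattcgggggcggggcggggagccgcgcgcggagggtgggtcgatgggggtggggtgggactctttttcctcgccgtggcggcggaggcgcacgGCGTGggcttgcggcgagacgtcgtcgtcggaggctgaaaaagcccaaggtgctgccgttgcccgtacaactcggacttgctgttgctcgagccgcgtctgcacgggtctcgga
The KMT2B window held 48 CpG dinucleotides at 83.3% GC, the KDM5B window 34 at 63.7% GC, and the HDAC9 window 5 at 49.3% GC, as 1 of 5 windows listed for HDAC9. That window lies inside the HDAC9 gene, which starts at position 18086949. Its start site is 41 bp from the start of the principal transcript of HDAC9. Which start these cells use was not tested. The start site of the KDM5B window lies 1049 bp from the start of its principal transcript in GENCODE. GCGTG stood once in the KMT2B window, once in the KDM5B window and not in that of HDAC9. It was found in 26 of the 41 member windows (63.4%) and in 36.5% of all windows. GCGTG itself holds a CpG, and the part of CpG content and of the choice of windows in this difference was not tested. The letters CTTTGAT, a core of the TCF/LEF factors that partner β-catenin, were in none of the 41 and in 2.62% of all windows, and TGACNNNGC, the core of the antioxidant response element bound by NRF2, was in 4 of the 41 (9.76%) and in 13.3% of all windows. Matches were counted on both strands, and these letters alone say nothing of binding.

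The methyltransferases of H3 lysine 4 had negative estimates throughout, and none passed the limma test. KMT2A and KMT2B are large SET-domain proteins that trimethylate lysine 4 at promoters, KMT2C and KMT2D act mainly on enhancers, SETD1A and SETD1B account for much of the promoter mark in bulk, and SETD7 adds a single methyl group and has many non-histone substrates. KMT2B (ENSG00000272333) had 658, 478 and 466 normalised counts in RSL3+ID libraries 1 to 3 and 868, 1006 and 803 in RSL3 libraries 1 to 3. All RSL3+ID libraries were below all RSL3 libraries, with means of 534 ± 108 and 893 ± 104 (SD, n = 3 each). The log2 fold change was −0.75 (SE 0.18, limma adjusted p = 0.0584), a 1.68-fold lower level, and in the authors' deposited table it was −0.74 (SE 0.20, adjusted p = 0.00909). The gene spans chromosome 19 from 35718019 to 35738878 on GRCh38, and its principal transcript has 37 exons. Its estimate was negative with each library left out, between −0.91 and −0.66, and the limma adjusted p was 0.0176 without RSL3+ID library 2 and between 0.0694 and 0.271 without any other library.

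The remaining enzymes of this mark were less separated. SETD1A had 644, 381 and 512 normalised counts in RSL3+ID libraries and 728, 664 and 677 in RSL3 libraries, so the groups did not overlap. Its log2 fold change was −0.46 (SE 0.20, limma adjusted p = 0.229), and leaving out RSL3+ID library 1 or 2 gave −0.64 or −0.26. KMT2A had 442, 401 and 263 normalised counts in RSL3+ID libraries and 436, 745 and 495 in RSL3 libraries, a log2 fold change of −0.59 (SE 0.25, limma adjusted p = 0.214), and the groups overlapped. RSL3 library 2 was the highest for KMT2A and KMT2C, and without it the estimates were −0.37 and −0.16. KMT2D had 858, 1288 and 546 normalised counts in RSL3+ID libraries, a wide spread, and 1011, 969.9 and 1216 in RSL3 libraries. Its log2 fold change was −0.33 with all libraries, −0.63 without RSL3+ID library 2 (limma adjusted p = 0.0338) and −0.013 without RSL3+ID library 3. KMT2C and SETD7 had estimates of −0.37 and −0.24. SETD1B, the highest estimate of the group at −0.15 (SE 0.23), had 1778, 904 and 1307 normalised counts in RSL3+ID libraries and 1343, 1735 and 1233 in RSL3 libraries, and its sign turned to 0.10 without RSL3+ID library 2. The median log2 fold change of these 7 genes was −0.37, beside −0.016 over all tested genes, and their median exon length was 13916 bp. With the trend on exon length removed all 7 estimates were still negative. They were −0.61 for KMT2B (limma adjusted p = 0.0800), −0.40 for SETD1A, −0.32 for KMT2A and −0.13 for KMT2C. For KMT2D, SETD1B and SETD7 they were −0.082, −0.051 and −0.044.

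The SET-domain proteins without a settled histone activity, KMT2E and SETD5, were also on the negative side. KMT2E, which binds trimethylated lysine 4 through a PHD finger, had 255, 109 and 156 normalised counts in RSL3+ID libraries and 281, 377 and 231 in RSL3 libraries. Only RSL3+ID library 1 lay within the range of the RSL3 libraries, and the log2 fold change was −0.83 (SE 0.30, limma adjusted p = 0.166), or −0.54 without RSL3+ID library 2. SETD5 had 889, 808 and 706 normalised counts in RSL3+ID libraries and 1067, 1118 and 799 in RSL3 libraries, with overlap (log2 fold change −0.30, SE 0.18). SETD2, which trimethylates H3 lysine 36 behind elongating RNA polymerase, had 552, 394 and 401 normalised counts in RSL3+ID libraries and 571, 1093 and 486 in RSL3 libraries. 1 library, RSL3 library 2, set most of this difference. The log2 fold change was −0.60 (SE 0.27, limma adjusted p = 0.250) and −0.25 without that library.

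**Figure D3:**
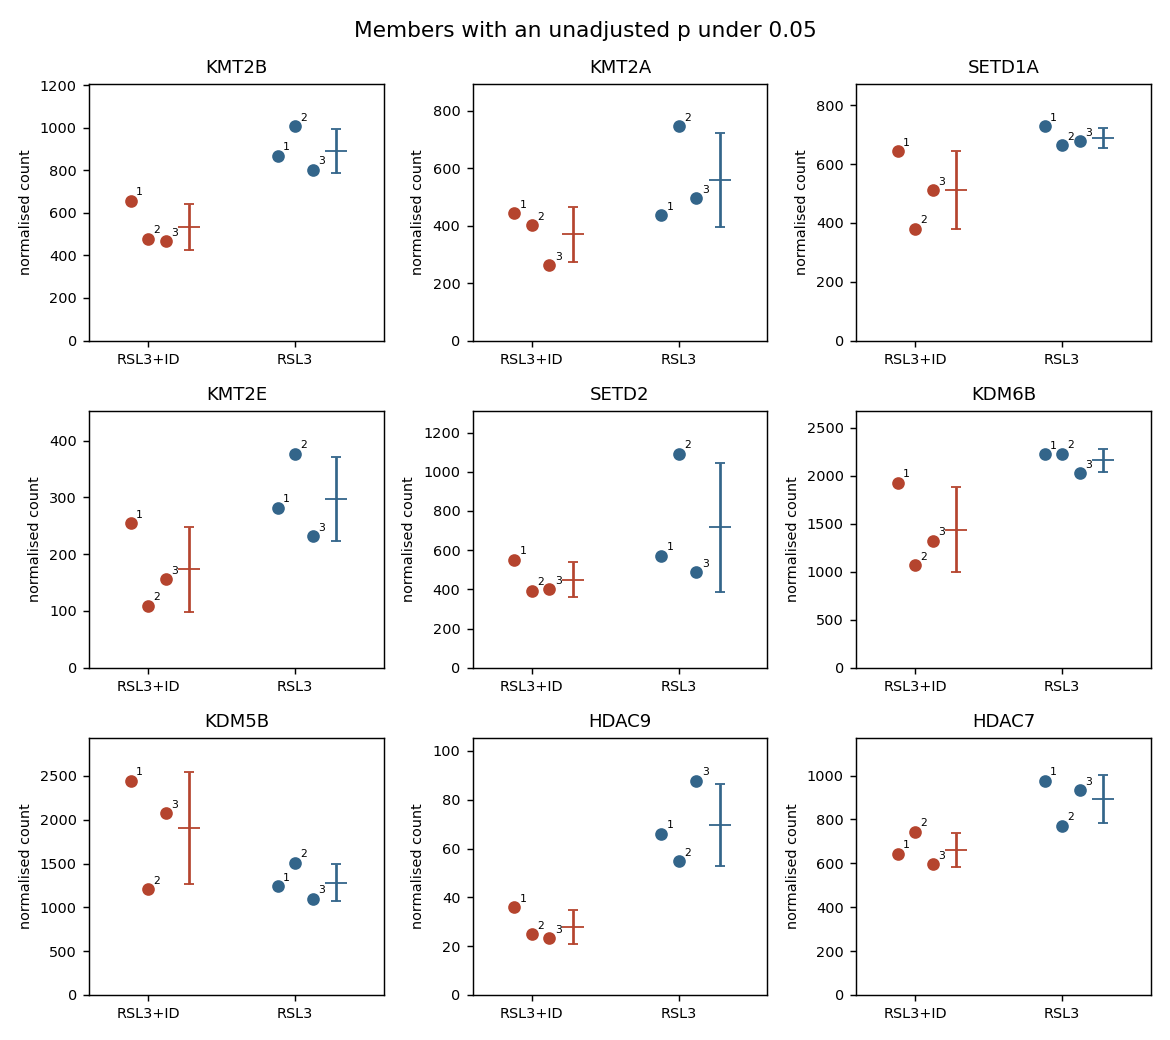
Normalised counts (y axis, from 0) in the 3 RSL3+ID and the 3 RSL3 libraries of the 9 members with an unadjusted p under 0.05, each point numbered by library, with the mean and SD beside the points. The groups do not overlap for KMT2B, SETD1A, KDM6B, HDAC9 and HDAC7, and they overlap for KMT2A, KMT2E, SETD2 and KDM5B.

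Of the 3 methyltransferases of H4 lysine 20 and the 4 other SET-domain proteins, KMT5B and SETD6 had the lowest estimates, and the other 5 lay between −0.076 and 0.21. KMT5A, which places the first methyl group on H4 lysine 20 and is needed for chromosome condensation, had 1756, 1669 and 1713 normalised counts in RSL3+ID libraries and 1779.9, 1878 and 1525 in RSL3 libraries. Its log2 fold change was −0.0072 with a 95% confidence interval from −0.31 to 0.30. KMT5B, which adds the further methyl groups, had 301, 153 and 161 normalised counts in RSL3+ID libraries and 276, 309.9 and 234 in RSL3 libraries, so that library 1 of RSL3+ID lay among the RSL3 libraries (log2 fold change −0.48, SE 0.27, limma adjusted p = 0.361). Its paralog KMT5C had 435, 687 and 537 normalised counts in RSL3+ID libraries and 508, 531 and 541 in RSL3 libraries (log2 fold change 0.046, SE 0.19). SETD6, a methyltransferase of the NF-κB subunit RELA, had 19.0, 30.7 and 20.2 normalised counts in RSL3+ID libraries and 34.8, 36.2 and 54.7 in RSL3 libraries. Its groups did not overlap, but its interval was wide, from −1.73 to 0.086 around a log2 fold change of −0.82 (limma adjusted p = 0.306), and 21.4% of its exon bases are shared with CNOT1 on the opposite strand. SETD4, the highest estimate of these genes, had 442, 560.0 and 401 normalised counts in RSL3+ID libraries and 400.3, 374 and 426 in RSL3 libraries (log2 fold change 0.21, SE 0.19). SETD3, the actin histidine methyltransferase, and SETD9 had estimates of −0.074 and −0.076.

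Among the demethylases the estimates pointed both ways. The amine oxidases KDM1A and KDM1B, which act on mono- and dimethylated lysine 4, had log2 fold changes of −0.064 (SE 0.14) and 0.035 (SE 0.21). KDM1A had 1239.8, 1049 and 1112 normalised counts in RSL3+ID libraries and 1232, 1175 and 1141 in RSL3 libraries. KDM1B had 368, 401 and 365 normalised counts in RSL3+ID libraries and 300.2, 495 and 337 in RSL3 libraries. Both pairs of groups overlapped. Of the 13 tested JmjC genes, 6 estimates were positive and 7 negative, with a median of −0.24 beside −0.016 over all tested genes.

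KDM6B and KDM5B stood at opposite ends of the JmjC family. KDM6B, which removes the repressive mark on H3 lysine 27 and is induced by inflammatory signals, had 1929, 1067 and 1324 normalised counts in RSL3+ID libraries and 2226, 2231 and 2025 in RSL3 libraries. The groups did not overlap, with RSL3+ID library 1 close under the RSL3 libraries, and the log2 fold change was −0.63 (SE 0.19, limma adjusted p = 0.110). KDM5B (ENSG00000117139), which removes methyl groups from H3 lysine 4, had 2445, 1203 and 2073 normalised counts in RSL3+ID libraries and 1244, 1509 and 1097 in RSL3 libraries. RSL3+ID libraries 1 and 3 were above all RSL3 libraries and library 2 was among them. The log2 fold change was 0.52 (SE 0.23, limma adjusted p = 0.244), and it depended on which RSL3+ID library was left out. It was 0.82 without library 2 (limma adjusted p = 0.00173), 0.31 without library 1 (limma adjusted p = 0.510) and 0.43 without library 3 (limma adjusted p = 0.465). Without 1 RSL3 library it lay between 0.42 and 0.65. After trends on length and GC content were taken out of each library it was 0.79 (limma adjusted p = 0.0370), and with the trend on length alone 0.78 (limma adjusted p = 0.0599). KDM5B spans chromosome 1 from 202724495 to 202809470 on the minus strand of GRCh38, and its exons cover 25882 bp. Its paralog KDM5A, of the same specificity, had 1099, 877 and 944 normalised counts in RSL3+ID libraries and 1079, 1401 and 984 in RSL3 libraries, a log2 fold change of −0.24 (SE 0.17).

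No other JmjC gene had an unadjusted p under 0.05. KDM2A, a demethylase of H3 lysine 36 that binds unmethylated CpG, had 5132, 4165 and 4748 normalised counts in RSL3+ID libraries and 4198, 4247 and 3583 in RSL3 libraries (log2 fold change 0.22, SE 0.14). KDM2B, its paralog that recruits a Polycomb complex to CpG islands, was at 991, 858 and 1030.2 normalised counts in RSL3+ID libraries and 1165, 1146 and 1196 in RSL3 libraries, without overlap (log2 fold change −0.29, SE 0.15). The H3 lysine 9 demethylases KDM3A and KDM3B had estimates of −0.38 and 0.045. KDM4A, KDM4B, KDM4C and KDM4D, which act on trimethylated lysine 9, had estimates of 0.059, 0.30, −0.43 and 0.28. All RSL3+ID libraries were above the RSL3 libraries for KDM4B and below them for KDM4C. KDM7A, which acts on dimethylated lysines 9 and 27, had an estimate of −0.58 (SE 0.30). KDM8 had an estimate of −0.61 (SE 0.46) at a low level, with between 13.5 and 29.6 normalised counts in RSL3+ID libraries and between 24.8 and 41.3 in RSL3 libraries.

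Among the class I deacetylases 2 estimates were positive and 2 negative. The class I enzymes HDAC1, HDAC2 and HDAC3 are the catalytic subunits of the SIN3, NuRD, CoREST and NCoR corepressor complexes. HDAC1 had 1402, 1712 and 1648 normalised counts in RSL3+ID libraries and 2195, 1743 and 1916 in RSL3 libraries, all RSL3+ID libraries lying below (log2 fold change −0.30, SE 0.15, limma adjusted p = 0.304). HDAC3, the enzyme of the NCoR complex, had 1053, 1368 and 1150.5 normalised counts in RSL3+ID libraries and 984, 874 and 974 in RSL3 libraries, all RSL3+ID libraries lying above (log2 fold change 0.33, SE 0.16, limma adjusted p = 0.271). HDAC8 was also above in every RSL3+ID library, with an estimate of 0.20, and HDAC2 had one of −0.16 with overlapping groups.

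All 4 class IIa genes had negative estimates, with a median of −0.49 beside −0.016 over all tested genes. For 3 of the 4 every RSL3+ID library was below the RSL3 libraries. This held for 12.6% of all tested genes and for 20.8% of those with exons at least as long as the median member. The median exon length of the 4 genes was 11648 bp. With the trend on exon length removed the estimates were −1.06 for HDAC9 (limma adjusted p = 0.169), −0.37 for HDAC4, −0.30 for HDAC7 and −0.14 for HDAC5. These enzymes have weak catalytic activity on acetyl-lysine, bind MEF2 factors and shuttle between nucleus and cytoplasm. HDAC9 (ENSG00000048052) had 35.9, 24.8 and 23.1 normalised counts in RSL3+ID libraries and 66.1, 54.7 and 87.8 in RSL3 libraries, with means of 27.9 ± 6.96 and 69.5 ± 16.8 (SD, n = 3 each). It was the lowest estimate of all 43 members, a log2 fold change of −1.29 (SE 0.37, limma adjusted p = 0.0881) or a 2.44-fold lower level. The authors' deposited table gives −1.32 (SE 0.45, adjusted p = 0.0471). The estimate lay between −1.47 and −1.11 with any 1 library left out, and the limma adjusted p lay between 0.0619 and 0.329. On the deposited variance-stabilised scale, which compresses low counts, the difference was −0.50 (limma adjusted p = 0.0876). HDAC9 spans chromosome 7 from 18086949 to 19002416 on GRCh38, with 25 exons in its principal transcript. HDAC7 had 643, 743 and 595 normalised counts in RSL3+ID libraries and 977, 772 and 932 in RSL3 libraries (log2 fold change −0.43, SE 0.17, limma adjusted p = 0.184), and its groups did not overlap. Without RSL3+ID library 2 the limma adjusted p was 0.0477 at a log2 fold change of −0.52, and without any other library it was between 0.257 and 0.501 at −0.54 to −0.36. With trends on length and GC removed the estimate was −0.28 (limma adjusted p = 0.331). HDAC4 had 86.6, 90.2 and 99.2 normalised counts in RSL3+ID libraries and 128, 112 and 173 in RSL3 libraries (log2 fold change −0.55, SE 0.27). HDAC5, the most abundant of the class, had 1938, 1499.7 and 1807 normalised counts in RSL3+ID libraries and 2257, 1879.9 and 1957 in RSL3 libraries, with overlap (log2 fold change −0.22, SE 0.15).

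The class IIb and class IV genes were not called and had wide or near-zero estimates. HDAC6, the tubulin deacetylase, had 287, 269.6 and 293 normalised counts in RSL3+ID libraries and 311, 293 and 298 in RSL3 libraries. Its groups did not overlap, yet the difference was small, with a 95% confidence interval from −0.49 to 0.31 around a log2 fold change of −0.088. HDAC10, a polyamine deacetylase, had 24.3, 35.7 and 8.66 normalised counts in RSL3+ID libraries and 26.8, 30.0 and 23.7 in RSL3 libraries, and 55.8% of its exon bases are shared with MAPK12 on the same strand. HDAC11 had 211, 479 and 280.2 normalised counts in RSL3+ID libraries and 290.4, 266 and 409.9 in RSL3 libraries, with both groups widely spread and a log2 fold change of −0.054 (SE 0.29).

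**Figure D4:**
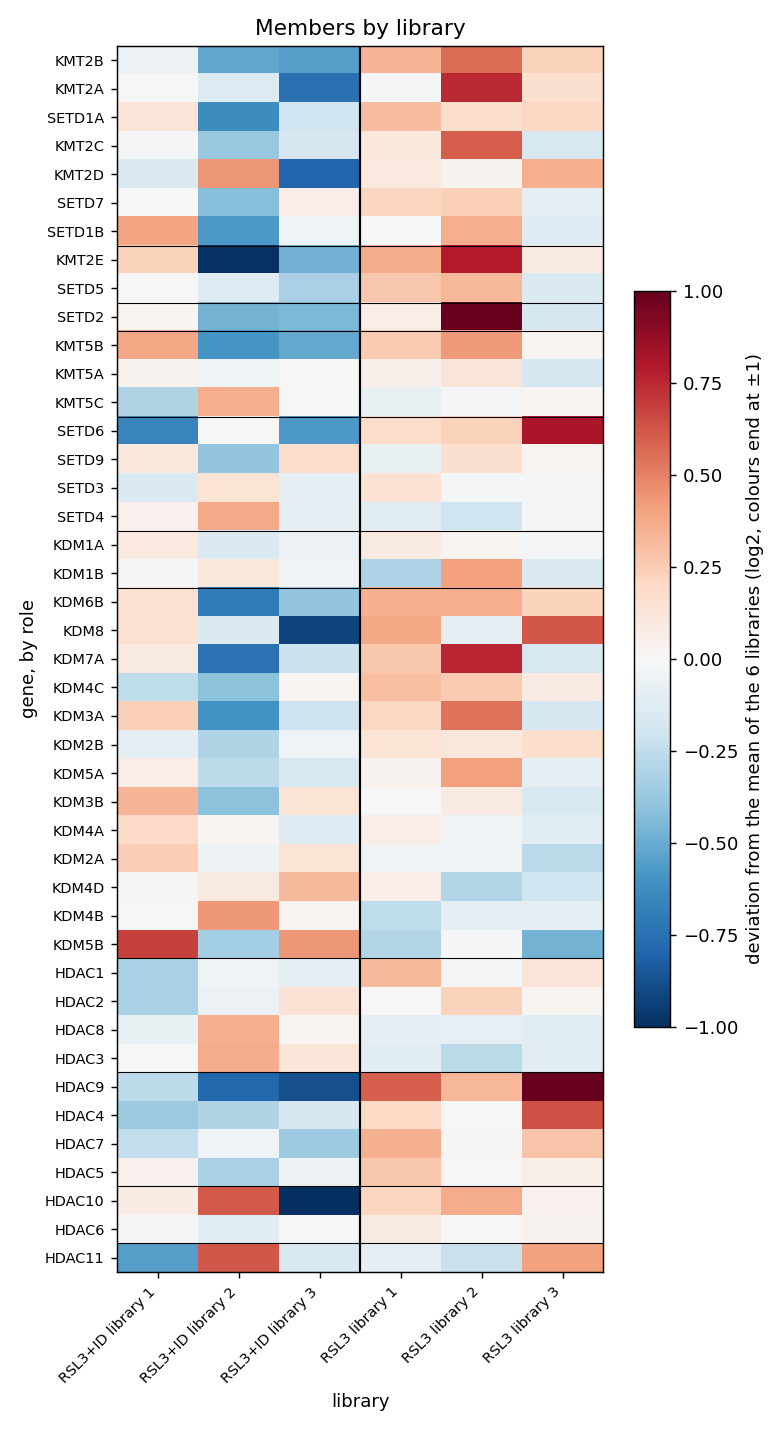
Deviation of each tested member from its mean over the 6 libraries on the log2 scale (colour), with genes in rows by role and the RSL3+ID libraries to the left of the RSL3 libraries. RSL3+ID library 1 is white or red for many SET-domain and JmjC genes, and HDAC9, HDAC4 and HDAC7 are below their mean in all 3 RSL3+ID libraries.

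Levels between members were compared per kilobase of the principal transcript, as the mean normalised count over all 6 libraries. HDAC1 was the highest at 833 normalised counts per kb, followed by KDM2A at 624, KMT5A at 548 and HDAC3 at 545. KDM1A had 382 and HDAC5 355. The H3 lysine 4 methyltransferases were spread from 33.1 for KMT2C and 33.9 for KMT2A to 232 for SETD1B, with KMT2B at 84.2. The lowest tested members by this mean were HDAC10 at 9.25, KDM8 at 11.4, HDAC4 at 12.8, HDAC9 at 15.2 and SETD6 at 16.0. Their order differed between the groups, since HDAC9 averaged 8.70 ± 2.17 normalised counts per kb in RSL3+ID libraries and 21.7 ± 5.23 in RSL3 libraries (SD, n = 3 each), below HDAC4 in RSL3+ID, at 10.2 ± 0.721, and above it in RSL3, at 15.3 ± 3.58. HDAC3 and KMT5A also changed places, HDAC3 averaging 607.7 ± 82.3 in RSL3+ID libraries and 482 ± 31.0 in RSL3 libraries and KMT5A 545 ± 13.9 in RSL3+ID libraries and 550.2 ± 58.0 in RSL3 libraries. The 4 lowest estimates belonged to HDAC9, KMT2E, SETD6 and KMT2B, at 15.2, 34.2, 16.0 and 84.2 normalised counts per kb. Within the class IIa deacetylases HDAC5 was 355 and HDAC9 15.2 on this scale. KDM4A shares 48.5% of its exon bases with other annotated genes, and the pseudogene KMT5AP2 had between 34.7 and 42.2 normalised counts in RSL3+ID libraries and between 47.4 and 65.1 in RSL3 libraries, so the levels of KDM4A and KMT5A are uncertain to that extent.

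**Figure D5:**
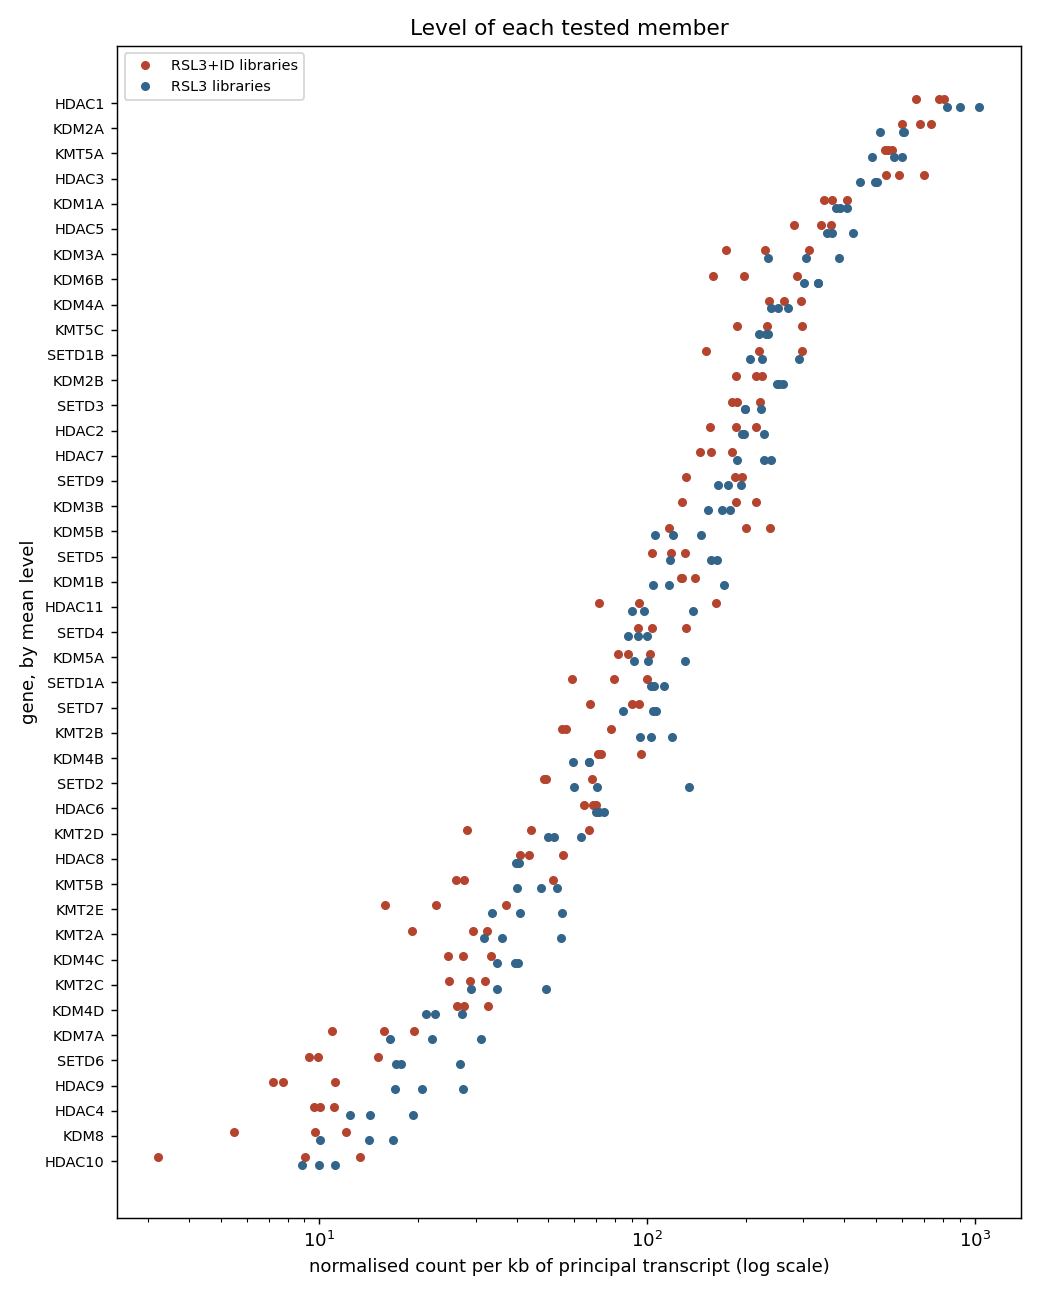
Normalised count per kb of principal transcript on a log scale (x axis) in each library, with the 43 tested members in rows by mean level. For HDAC9, HDAC4, SETD6 and KMT2B the 3 RSL3+ID points lie left of the 3 RSL3 points, and for HDAC3, HDAC8 and KDM4B they lie right of them.

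The genes that work with these enzymes were described as 7 further lists with 107 tested genes in all. Of these 107, 73 had a negative estimate and the median log2 fold change was −0.19, with 4 higher and 1 lower at a limma adjusted p under 0.05, where 1.08% and 0.832% of all tested genes passed as higher and lower. RBBP7, a histone-binding subunit shared by Polycomb repressive complex 2 and the deacetylase complexes NuRD and SIN3, rose 1.62-fold, with 3798, 3610 and 4072 normalised counts in RSL3+ID libraries and 2483, 2376 and 2243 in RSL3 libraries (limma adjusted p = 0.0329). SIRT2, an NAD-dependent deacetylase of tubulin and histone H4, rose 1.74-fold, with 1745, 2045 and 1529.8 normalised counts in RSL3+ID libraries and 949, 1031 and 1053 in RSL3 libraries (limma adjusted p = 0.0339). SAP18 and BRMS1, subunits of SIN3 complexes, rose 1.45- and 1.51-fold (limma adjusted p = 0.0463 and 0.0490). HCFC1, a chromatin-binding subunit of the SETD1 and KMT2 complexes, fell, with 1381, 1039.8 and 980 normalised counts in RSL3+ID libraries and 1803, 1793 and 1874 in RSL3 libraries (log2 fold change −0.70, limma adjusted p = 0.0490). All 5 stayed past the threshold without RSL3+ID library 2, where 9.34% of all tested genes passed. None did when any other library was left out, where between 0 and 4 of all tested genes passed. With scaling to the total count 2 of the 5 stayed past it, with the length trend removed 2, with length and GC trends removed 3, with upper-quartile scaling 4 and with the replicate block 0.

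The lists themselves differed in direction. The 17 listed histone acetyltransferases include the coactivators NCOA1, NCOA2 and NCOA3 and the transcription factors ATF2, TAF1 and CLOCK, each with a negative estimate. Of the 17 genes, 15 had a negative estimate, beside 51.5% of all tested genes, and the median was −0.51. None passed the limma threshold, and 6 were lower at an unadjusted p under 0.05, beside 9.71% of all tested genes. The authors' deposited table lists 3 of the 17 as lower. Of 7 sirtuins, 5 had a positive estimate and the median was 0.49, with SIRT2 past the threshold. SIRT1 went the other way, at −0.70 (limma adjusted p = 0.0881). The authors' deposited table lists 2 of the 7 as higher and 1, SIRT1, as lower. The 12 tested subunits of the KMT2 and SETD1 complexes had a median of −0.11, the 9 genes of Polycomb repressive complex 2 one of −0.17, the 21 other lysine methyltransferases one of −0.14, the 29 deacetylase corepressor subunits one of −0.14 and the 12 other JmjC proteins one of −0.26. From Polycomb repressive complex 2 the authors' deposited table holds RBBP7 and EED, both higher. From the KMT2 and SETD1 subunits it holds DPY30 as higher and HCFC1 as lower. It lists 3 corepressor subunits as lower and 3 as higher, and 1 other lysine methyltransferase as lower. The median exon length was 8633 bp for the acetyltransferases and 5202 bp for the sirtuins. The authors' deposited table held 9 of the 107 as lower and 8 as higher, where 3.03% and 3.27% of all tested genes stood in it.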

How the data were processed

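RNA of 6 BEAS-2B libraries was sequenced. Tools named, without roles, in the submitters' processing notes are DESeq2 1.30.0, StringTie 2.1.5, HISAT2 2.2.1 and Trimmomatic 0.39, with build GRCh38. No source used here names the read counter, strand setting or annotation. The expression values the authors deposited are log2 with 1 shared floor, 6.04, the form of DESeq2's variance-stabilising transform. Inverting the transform gave counts over size factors, and 100.0% of values lay within 0.001 of whole reads. For 894 genes the mean signal in the authors' deposited table of changed genes equalled the mean of these values within a relative 2.5e-14. That table also gives log2 fold changes, p-values and a test score, per the file headers. All 894 had the sign of RSL3+ID over RSL3.

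Log2(normalised count + 1) was tested over all genes with a mean of at least 10 using limma 3.58.1 in R 4.3.3 (trended, robust, 2-sided, Benjamini-Hochberg), and tested on simulated data. Fold changes are on this scale, which understates low genes. Lengths, exons and overlaps come from GENCODE 29. Length and GC trends were removed per library with mgcv 1.9.3. Alternatives were other filters, pseudocounts, scalings, voom, a replicate block and each library left out. Members, lists and tests were chosen with earlier results of these data known. Any member could be named. Library values were given for members in the authors' table or with an unadjusted p under 0.05, and for the extremes of each role group. Those of KMT2D, KMT5A, KDM2A, KDM2B, KDM5A, KDM8 and HDAC4 were added after they were seen.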

Additional observations from a re-analysis of the deposited data

How the results depend on the processing

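The count of 0 members past the limma threshold was 1 without a filter on low values (KMT2B, adjusted p = 0.0479, where 1.44% of genes passed), 1 with scaling to the total count (KMT2B, adjusted p = 0.0447, where 2.16% passed), and 1 when trends on length and GC were removed (KDM5B, where 2.4% passed). It ranged from 0 to 4 with 1 library left out, the 4 being HDAC7, KMT2B, KMT2D and KDM5B without RSL3+ID library 2, where 9.34% of genes passed. The members' median of −0.24 was −0.33 under total-count scaling (median of all genes −0.11), −0.098 with the length trend removed, −0.096 with length and GC trends removed, and between −0.31 and −0.18 with 1 library left out. The 271 genes called in all became 123 with the length trend removed. There were 1325 without RSL3+ID library 2 and between 0 and 4 without any other library. The share of higher genes among all calls was 56.5% in the main fit, 29.3% with scaling to the total count and 68.0% with upper-quartile scaling. The replicate block called 0 members, none of the 5 companion genes and 0 of all genes. Libraries of the same number did not deviate together (correlations of −0.002, −0.246 and −0.180 for numbers 1 to 3). Between libraries of different numbers the correlations ran from −0.186 (RSL3+ID 1 with RSL3 3) to 0.307 (RSL3+ID 2 with RSL3 3). Deviations from means of 3 libraries cannot settle whether libraries were paired, and a pairing under other numbers was not tested.

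Of the 39 members with a value in all 17 settings, 29 kept their sign in each. HDAC9, HDAC10, KDM8 and SETD6 drop out at a minimum mean of 50, and of these HDAC9, KDM8 and SETD6 kept their sign in the rest. Scaling to the total count turned KDM1B to −0.056, KDM3B to −0.046, KDM4A to −0.033 and KMT5C to −0.046. Upper-quartile scaling turned KMT5A to 0.016. The length trend turned HDAC2 to 0.050 and HDAC6 to 0.057, and with GC they were 0.052 and 0.063. With 1 library left out the estimate ran from −0.11 to 0.25 for KDM1B, −0.12 to 0.26 for KDM3B, −0.023 to 0.14 for KDM4A, −0.12 to 0.21 for KMT5C, −0.094 to 0.056 for KMT5A, −0.39 to 0.10 for SETD1B, −0.18 to 0.10 for SETD9, −0.83 to 0.14 for HDAC10 and −0.38 to 0.21 for HDAC11. The cause of these changes was not tested. Genes under about 50 normalised counts (HDAC9, HDAC10, KDM8, SETD6) have wide intervals.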
